A study of Mus musculus with 10 samples.

Results

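The vascular endothelial growth factor (VEGF) family was read in the H3K4me3 promoter peaks of 3 sorted populations of naive extra-embryonic endoderm (nEnd). The family was taken as 9 genes of 21755 protein-coding genes examined. They are the receptors Flt1, Kdr and Flt4, the co-receptors Nrp1 and Nrp2, and the ligands Vegfa, Vegfb, Vegfc and Pgf. The set was chosen by the presence and the percentiles of its promoter peaks in these same libraries, Flt1 leading, so those values are given as a description, with no test between populations. A gene counted as marked if at least 1 bp of a peak fell between 1000 bp before and 100 bp after one of its transcription start sites (TSS) in GENCODE release M21 (GRCm38).

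VEGF ligands are secreted dimers that bind receptor tyrosine kinases. FLT1 (VEGFR1) binds VEGFA, VEGFB and PGF, KDR (VEGFR2) is the main signalling receptor for VEGFA in endothelial cells, and FLT4 (VEGFR3) binds VEGFC. The neuropilins NRP1 and NRP2 bind both VEGF and class 3 semaphorins. The family is best known for vessel and lymphatic growth, and in the conceptus Flt1 and Vegfa are also known from extra-embryonic tissues. H3K4me3, trimethylation of lysine on the tail of histone H3, sits around the start of transcribed genes, mostly over CpG-rich promoters.

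The samples were 10 H3K4me3 CUT&Tag libraries of an OCT4-mCherry reporter mouse line without treatment, a method in which an antibody directs the Tn5 transposase to the mark. The line, differentiated from embryonic stem cells to endoderm and kept in RACL medium (Activin A, CHIR99021 and LIF) on mouse embryonic fibroblasts, was sorted by flow cytometry on OCT4-mCherry and PDGFRA-APC into Oct4+ nEnd (4 libraries), double-positive DP nEnd (3) and Pdgfra+ nEnd (3). All groups therefore share 1 reporter line and 1 culture condition, and how far these cells stand for those of an embryo is not addressed by these libraries. Each library pools sorted cells, so fewer cells carrying the mark and less mark per cell cannot be told apart.

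The libraries held 3477 to 9144 peaks in Oct4+ nEnd, 7575 to 8836 in DP nEnd and 6510 to 10545 in Pdgfra+ nEnd. Coverage was not scaled between libraries and the read depth is unknown, so each peak was placed by its percentile, the percent of peaks of its own library with a lower value. Oct4+ nEnd replicate 3 stood apart, with 3477 peaks and a median highest coverage of 22, against 38 to 144 in the others, and joining peaks found in at least 2 of replicates 1, 2 and 4 gave all 7860 intervals of the deposited Oct4+ nEnd consensus, so it does not enter that list. The markers followed the sort. All 5 Oct4+ population markers had a peak in each library of DP nEnd and Oct4+ nEnd, and 0 or 1 did in Pdgfra+ nEnd. The 6 endoderm markers had one in each library of Pdgfra+ nEnd and DP nEnd, and 0 to 4 did in Oct4+ nEnd. Of 12 endothelial markers, 10 were unmarked in all 10 libraries, and a library had at most 1 marked. Of 11 fibroblast markers, 9 were unmarked throughout and a library had at most 2, the part of feeder cells in any result was not tested, and 1 to 3 of 7 trophoblast markers were marked.

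Promoter sequences are shown for the 3 genes whose marking switched between populations (Flt1, Nrp1 and Vegfc), for Vegfa, which was marked everywhere at different ranks, and for 2 genes with almost no marking (Kdr and Nrp2). Each is the 250 bases before the first annotated start, read 5′ to 3′ on the strand of the gene from GRCm38, with CpG sites in capitals.
Flt1: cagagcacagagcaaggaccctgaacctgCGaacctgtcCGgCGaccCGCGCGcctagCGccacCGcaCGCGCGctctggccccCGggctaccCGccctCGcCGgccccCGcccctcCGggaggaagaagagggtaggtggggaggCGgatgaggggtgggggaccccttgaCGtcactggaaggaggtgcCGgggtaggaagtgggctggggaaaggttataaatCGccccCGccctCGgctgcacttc
Nrp1: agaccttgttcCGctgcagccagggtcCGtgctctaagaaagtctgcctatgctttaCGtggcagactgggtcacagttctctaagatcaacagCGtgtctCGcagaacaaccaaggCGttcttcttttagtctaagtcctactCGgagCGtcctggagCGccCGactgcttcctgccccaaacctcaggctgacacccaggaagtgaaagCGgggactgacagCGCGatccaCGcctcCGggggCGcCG
Vegfc: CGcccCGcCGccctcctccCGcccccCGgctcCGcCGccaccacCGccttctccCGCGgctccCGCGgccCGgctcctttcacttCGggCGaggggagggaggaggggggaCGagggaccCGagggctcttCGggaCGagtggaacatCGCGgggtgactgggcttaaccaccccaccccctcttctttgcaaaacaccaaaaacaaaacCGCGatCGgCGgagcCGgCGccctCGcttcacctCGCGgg
Vegfa: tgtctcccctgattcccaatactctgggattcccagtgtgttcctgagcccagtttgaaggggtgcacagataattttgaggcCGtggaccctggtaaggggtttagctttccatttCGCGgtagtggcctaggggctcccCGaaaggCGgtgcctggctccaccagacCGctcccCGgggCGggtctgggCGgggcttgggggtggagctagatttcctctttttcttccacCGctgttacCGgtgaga
Kdr: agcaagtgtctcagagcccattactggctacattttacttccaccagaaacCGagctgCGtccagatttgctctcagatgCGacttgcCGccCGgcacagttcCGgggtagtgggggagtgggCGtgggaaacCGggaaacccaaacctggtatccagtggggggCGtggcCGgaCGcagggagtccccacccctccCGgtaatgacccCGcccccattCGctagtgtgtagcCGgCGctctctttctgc
Nrp2: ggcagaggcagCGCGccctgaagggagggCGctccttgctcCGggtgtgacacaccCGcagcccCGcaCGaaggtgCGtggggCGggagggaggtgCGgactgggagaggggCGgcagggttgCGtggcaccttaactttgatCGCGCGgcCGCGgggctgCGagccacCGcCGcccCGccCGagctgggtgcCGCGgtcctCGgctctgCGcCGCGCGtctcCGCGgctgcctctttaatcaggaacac
These stretches lie at chr5:147726012-147726261 (minus strand) for Flt1, chr8:128358354-128358603 (plus) for Nrp1, chr8:54077282-54077531 (plus) for Vegfc, chr17:46032378-46032627 (minus) for Vegfa, chr5:75978459-75978708 (minus) for Kdr and chr1:62703035-62703284 (plus) for Nrp2. Wherever Flt1, Nrp1, Vegfc or Vegfa was marked, the peak spanned its whole stretch.

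The stretches of Flt1, Nrp1 and Vegfc held 23, 17 and 30 CpG sites. Over all 21755 genes the median was 8, with 3 among the 10123 genes marked in 0 libraries, 13 among those marked in 1 to 9 and 19 among the 3616 marked in all 10. Vegfb, marked in all 10 libraries, had 26, while Vegfa, also marked in all 10, had 11, below the lower quartile of 12 of such genes. Nrp2 had 31 CpG sites, the highest count of the family, and was marked in 2 libraries. Kdr had 16, Flt4 7 and Pgf 6. The number of CpG sites thus did not order the 9 genes by their marking. The Flt1 stretch also held TATAA, 31 bases before the start, and TGACGTCA, the palindromic cyclic AMP response element, 81 bases before it. Both were looked for on both strands after the sequence had been seen, as were the 3 motifs that follow. TATAA occurred in 21.1% and TGACGTCA in 1.92% of the 21755 stretches. GATAA, read by GATA factors, was found before Vegfa and Flt4 and in 21.5% of all stretches. ACGTG, the core of the hypoxia response element, was found before Nrp1 and Pgf and in 17.5%, and GGAAG, a core of ETS sites, before every member but Vegfb, Vegfc and Nrp2 and in 64.7%. Matches of one motif were counted whether or not they overlapped another, and a match describes letters only.

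**Figure D1:**
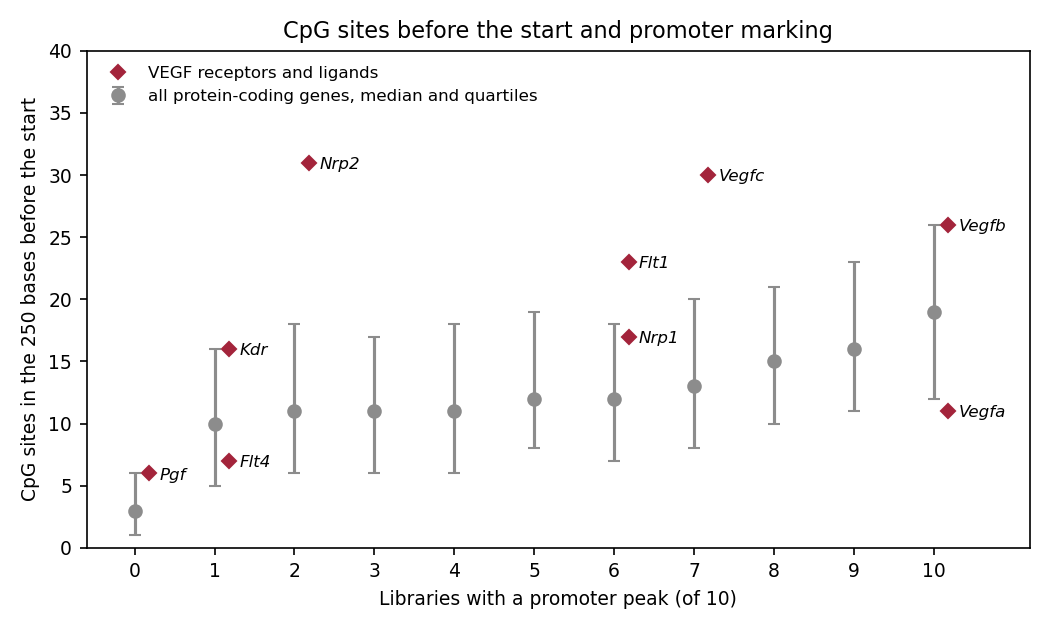
CpG sites in the 250 bases before the first start (y axis, count) against the number of libraries, of 10, with a promoter peak (x axis). Grey points and bars are the median and quartiles of all protein-coding genes, and red diamonds the 9 VEGF genes. Nrp2, with 31 sites and 2 marked libraries, lies far above the median of 11 of its class, and Vegfa, with 11, just below the quartile of genes marked everywhere.

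Flt1, Nrp1 and Vegfa ranked lower or had no peak in Oct4+ nEnd, and Vegfc did the reverse. Against DP nEnd, the percentiles by total signal of 3 of the 9 genes (Flt1, Vegfa and Nrp1) were higher in every DP nEnd library than in any Oct4+ nEnd library, against 12.5% of all genes, and Vegfc was higher in Oct4+ nEnd, against 2.25%. Against Pdgfra+ nEnd the same 3 were higher in Pdgfra+ nEnd, against 10.1% of all genes, and Vegfc in Oct4+ nEnd, against 2.46%. Flt1 was higher in every Pdgfra+ nEnd than DP nEnd library (all genes, 2.48%) and Vegfc higher in DP nEnd (all genes, 1.43%). The comparisons with Oct4+ nEnd share its 4 libraries. Leaving out Oct4+ nEnd replicate 3 gave the same genes in each comparison, but the genes of all 21755 that were higher in Oct4+ nEnd went from 489 to 989 against DP nEnd and from 535 to 961 against Pdgfra+ nEnd. Between DP nEnd and Pdgfra+ nEnd, those higher in DP nEnd went from 312 to 2686 without Pdgfra+ nEnd replicate 1, and those higher in Pdgfra+ nEnd from 540 to 1721 without Pdgfra+ nEnd replicate 2, so the shares of all genes beside Flt1 and Vegfc rest on single libraries. With equal numbers of peaks, the 3477 strongest of each library, Vegfc had no peak in DP nEnd and no longer differed from Pdgfra+ nEnd, and Nrp1 no longer separated Oct4+ nEnd from DP nEnd.

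By presence alone, Flt1 and Nrp1 were marked in every DP nEnd library and in 0 of 4 of Oct4+ nEnd, against 1.94% of all genes, and also in every Pdgfra+ nEnd library, against 1.43%. Marking in all of Oct4+ nEnd with none in DP nEnd was shown by 0 of the 9 (all genes, 0.202%). Vegfc was marked in all 4 Oct4+ nEnd libraries and in 0 of 3 of Pdgfra+ nEnd (all genes, 0.359%), and in every DP nEnd library and 0 of 3 of Pdgfra+ nEnd (all genes, 0.11%). The opposite pattern, marked in all of Pdgfra+ nEnd and none of DP nEnd, was shown by 0 of the 9 and by 0.0046% of all genes. The number of the 9 genes marked per library was 4, 3, 3 and 3 in Oct4+ nEnd, 6, 5 and 5 in DP nEnd and 6, 4 and 4 in Pdgfra+ nEnd. Of all 21755 genes 18.5% to 43.8% were marked per library in Oct4+ nEnd, 39.4% to 45.2% in DP nEnd and 33.8% to 51.2% in Pdgfra+ nEnd. The highest number of the 9 genes was marked in replicate 1 of each population, which in Oct4+ nEnd and Pdgfra+ nEnd also had the most peaks.

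**Figure D2:**
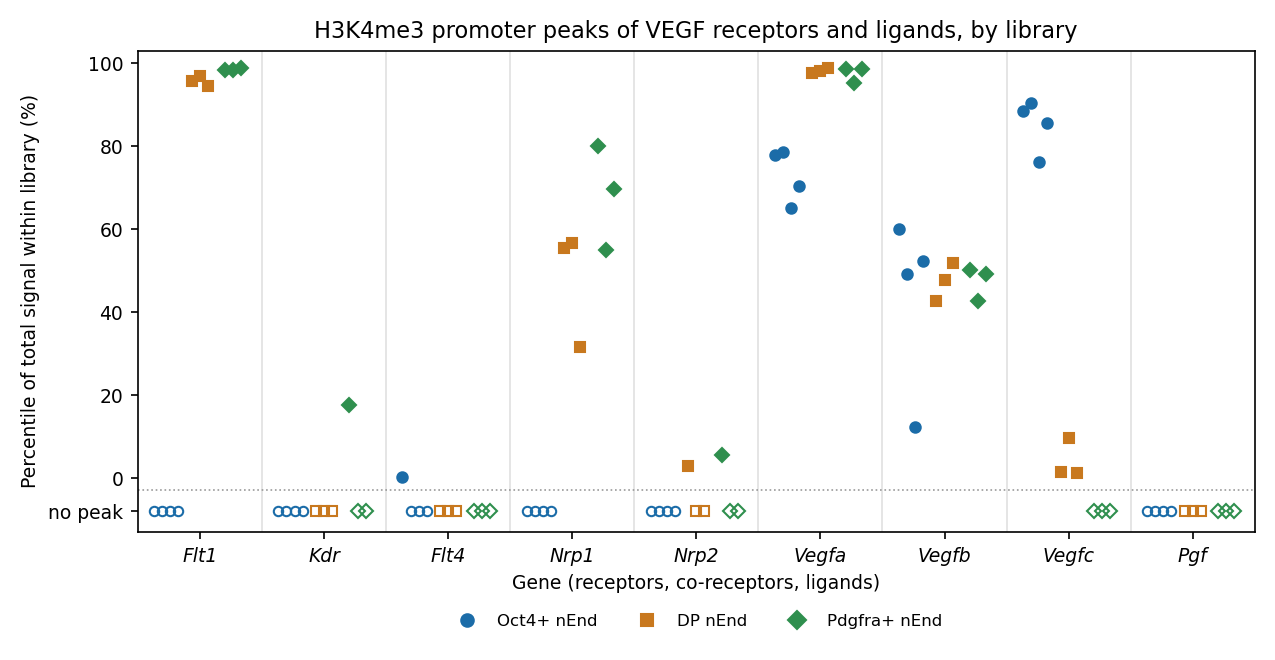
Percentile of the promoter peak by total signal within its library (y axis, %) for the 9 genes (x axis), 1 symbol per library of Oct4+ nEnd (blue circles), DP nEnd (orange squares) and Pdgfra+ nEnd (green diamonds). Open symbols in the lowest band have no peak. Flt1 and Nrp1 have no peak in 4 of 4 Oct4+ nEnd libraries, Vegfc has none in 3 of 3 Pdgfra+ nEnd libraries, and Pgf has none in any.

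Among the receptors, Flt1 (ENSMUSG00000029648.13) was the one strongly marked. It lies on the minus strand of chromosome 5, from 147561604 to 147726011, with 5 TSS. By total signal, replicates 1, 2 and 3 of DP nEnd placed its promoter peak at 95.7, 96.9 and 94.4 percent, 95.7 ± 1.25 (SD, n = 3). In Pdgfra+ nEnd it lay at 98.3, 98.3 and 98.9, 98.5 ± 0.302 (SD, n = 3). In Oct4+ nEnd 0 of 4 libraries had a peak at the promoter or anywhere else in the gene. The 6 marked libraries thus place Flt1 among their strongest peaks, rank 347 of 8128, 270 of 8836 and 421 of 7575 in DP nEnd and 176 of 10545, 107 of 6510 and 89 of 7800 in Pdgfra+ nEnd, and the 2 populations do not overlap by this measure.

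By the highest coverage in the peak, Flt1 lay at the 91.2, 94.1 and 92.0 percentiles in DP nEnd and at 97.7, 89.4 and 99.2 in Pdgfra+ nEnd. Here Pdgfra+ nEnd replicate 2 fell below all 3 DP nEnd libraries, so the separation of DP nEnd and Pdgfra+ nEnd rested on total signal. The peak measured 7992, 8257 and 5005 bp in DP nEnd and 8735, 3375 and 5051 bp in Pdgfra+ nEnd, and these ranges overlap. It began 731 to 2449 bp before the first start and reached 2644 to 6616 bp into the gene, over 341 bp of exon and 2303 to 6275 bp of intron. In every marked library it covered 2 of the 5 TSS, those at 147726011 and 147725988, while the 3 internal starts, which give shorter transcripts, had no peak. The highest coverage stood 229.5 to 323.5 bp inside the gene in DP nEnd and 10 to 74.5 bp inside it in Pdgfra+ nEnd, which do not overlap. The consensus peak ran from 147719396 to 147728460 (9065 bp) in DP nEnd and from 147719623 to 147728357 (8735 bp) in Pdgfra+ nEnd, and the Oct4+ nEnd consensus had none.

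The strength of the Flt1 peak was set beside genes of like rank. In all 6 of these libraries 308 genes, Flt1 included, lay at or above the 94.4 percentile, the lowest value of Flt1. Of the 308, 275 (89.3%) had a peak in each Oct4+ nEnd library and 4 had no peak there. Among the 4 were Flt1, Foxa2 and Hs3st1. Foxa2 encodes an endodermal transcription factor, and Hs3st1 an enzyme that sulfates heparan sulfate. Pan3, which encodes a subunit of a deadenylase, lies beyond the 3′ end of Flt1 with 13102 bp between the gene bodies, and its promoter was marked in all 10 libraries, between the 81.5 and 93.4 percentiles in Oct4+ nEnd, 90.5 and 92.3 in DP nEnd and 83.7 and 94.2 in Pdgfra+ nEnd. No peak of Flt1 reached another promoter.

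By the mean absolute difference in percentile over the 10 libraries, with a promoter without a peak set to 0, the genes most like Flt1 included Hs3st1 (0.712 percentile points), Adora1 (1.49), Foxa2 (1.49) and Pth1r (1.84). Adora1 encodes an adenosine receptor and Pth1r the receptor of parathyroid hormone, which is known from parietal endoderm. Hs3st1, Adora1 and Foxa2 were marked in 0 of 4 Oct4+ nEnd libraries and Pth1r in 1. The measure gives much weight to presence, since an absent peak counts as 0 in 4 of the 10 libraries.

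Kdr and Flt4 each had a peak in 1 of the 10 libraries. Kdr (ENSMUSG00000062960.10, chromosome 5, 75932827 to 75978458, minus strand) had a peak in Pdgfra+ nEnd replicate 1 alone, 2078 bp wide at the 17.6 percentile by total signal and 21.3 by highest coverage. Flt4 (ENSMUSG00000020357.3, chromosome 11, 49609263 to 49652739, plus strand) had a peak in Oct4+ nEnd replicate 1 alone, 2685 bp wide at the 0.361 percentile by total signal and 7.81 by highest coverage. Both were found in the replicate with the most peaks of its population, and neither is in a consensus list. Kdr lies in a cluster with Kit and Pdgfra, both receptor tyrosine kinase genes. Kit, with 276105 bp between its gene body and that of Kdr, was marked in all 10 libraries. Pdgfra, the gene of the sorting marker, 734612 bp away, was marked in 1 of 4 Oct4+ nEnd libraries and in all 6 others, where it lay at the 99.8 percentile or above.

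**Figure D3:**
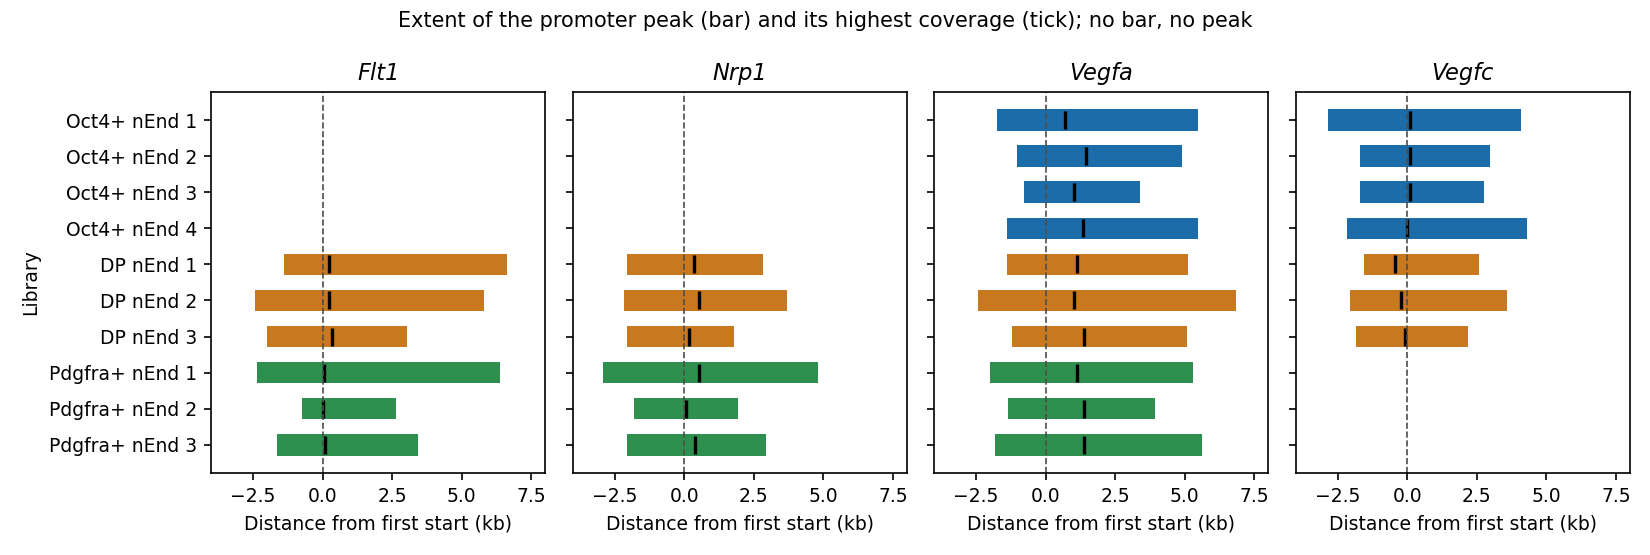
Extent of the promoter peak of Flt1, Nrp1, Vegfa and Vegfc in each library (rows), as distance in kb from the first annotated start (x axis, positive into the gene). A bar is the peak, the black tick the middle of its stretch of highest coverage, and a row without a bar has no peak. Flt1 and Nrp1 have 0 bars in the 4 Oct4+ nEnd rows, Vegfc has 0 in the 3 Pdgfra+ nEnd rows, and the tick of Vegfa stands 703.5 to 1457 bp inside the gene.

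The co-receptor Nrp1 (ENSMUSG00000025810.9, chromosome 8, 128358604 to 128503363, plus strand, 4 TSS) was marked in the same libraries as Flt1, at lower ranks. Total signal placed it at 55.5, 56.7 and 31.7 percent in DP nEnd, 47.9 ± 14.1 (SD, n = 3), and at 80, 55.1 and 69.7 in Pdgfra+ nEnd, 68.2 ± 12.5 (SD, n = 3), with 0 of 4 Oct4+ nEnd libraries marked. The DP nEnd and Pdgfra+ nEnd values overlap, since Pdgfra+ nEnd replicate 2 lies below 2 of the DP nEnd libraries. By highest coverage the peak lay lower, at 24.0, 27.7 and 2.52 in DP nEnd and 47.9, 5.25 and 39.2 in Pdgfra+ nEnd. It measured 4907, 5880 and 3842 bp in DP nEnd and 7724, 3732 and 5007 bp in Pdgfra+ nEnd and covered all 4 TSS in each.

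Nrp1 was set beside the genes at or above its lowest value, the 31.7 percentile, in all 6 libraries. Of these 4900 genes, 3176 (64.8%) had a peak in each Oct4+ nEnd library and 99 (2.02%), Nrp1 included, had no peak there. The set of Flt1 lies within this one, with shares of 89.3% and 1.30%, and no test compared the sets. With equal numbers of peaks Nrp1 had no peak left in DP nEnd. Nrp2 (ENSMUSG00000025969.15, chromosome 1, 62703285 to 62818695, plus strand) had a peak in DP nEnd replicate 1, at the 2.89 percentile, and in Pdgfra+ nEnd replicate 1, at 5.52, and in 0 of the other 8 libraries. The 2 peaks differed in width, 5510 and 1895 bp.

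Vegfc (ENSMUSG00000031520.6, chromosome 8, 54077606 to 54187096, plus strand, 3 TSS), the ligand of FLT4 and KDR known for lymphatic growth, had the opposite pattern. Total signal placed it at 88.5, 90.5, 76.2 and 85.6 percent in Oct4+ nEnd replicates 1 to 4, 85.2 ± 6.32 (SD, n = 4), and at 1.49, 9.60 and 1.31 in DP nEnd, 4.13 ± 4.73 (SD, n = 3). Pdgfra+ nEnd had no peak in 3 of 3 libraries. The populations do not overlap, and the DP nEnd peaks are among the weakest of their libraries, at rank 8007 of 8128, 7988 of 8836 and 7476 of 7575. By highest coverage Vegfc lay at 76.3, 84.9, 75.7 and 86.6 in Oct4+ nEnd and 0.763, 1.86 and 1.6 in DP nEnd.

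The weak Vegfc peaks of DP nEnd were not narrow. They measured 4103, 5641 and 4010 bp, against 6931, 4695, 4455 and 6474 bp in Oct4+ nEnd, ranges that overlap, and covered all 3 TSS in each of the 7 libraries. Their highest coverage stood before the first GENCODE start, at positions −427, −214 and −61 bp, whereas in Oct4+ nEnd it stood from −12 to 113.5 bp. Of 973 genes that reached the 76.2 percentile throughout Oct4+ nEnd, 966 (99.3%) had a peak in each DP nEnd library, and 3 had a lower mean percentile there than Vegfc. The 3 were Fgf4, Tdgf1 and Hsd17b14. Fgf4 encodes a growth factor and Tdgf1 a Nodal co-receptor, both known from the epiblast. In Pdgfra+ nEnd 910 of the 973 (93.5%) were marked in every library and 20, Vegfc among them, in none. Vegfc is in the consensus lists of Oct4+ nEnd (7136 bp) and DP nEnd (5641 bp).

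Vegfa (ENSMUSG00000023951.17, chromosome 17, 46016993 to 46032369, minus strand, 8 TSS), the main ligand of KDR and also bound by FLT1, was marked in all 10 libraries at different ranks. By total signal it lay at the 77.9, 78.7, 65.0 and 70.5 percentiles in Oct4+ nEnd, 73.0 ± 6.48 (SD, n = 4). It lay at 97.7, 98.2 and 99.0 in DP nEnd, 98.3 ± 0.639 (SD, n = 3), and at 98.7, 95.3 and 98.5 in Pdgfra+ nEnd, 97.5 ± 1.92 (SD, n = 3). Every DP nEnd and Pdgfra+ nEnd library was above every Oct4+ nEnd library, and these 2 populations overlapped each other.

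By highest coverage Vegfa lay at 45.4, 42.5, 9.46 and 46.3 in Oct4+ nEnd, with replicate 3 far below the others. It lay at 69.8, 84.5 and 91.6 in DP nEnd and 89.1, 62.0 and 92.1 in Pdgfra+ nEnd, again above all 4. The peak ranked higher by total signal than by highest coverage in each library. It measured 7209, 5914, 4184 and 6888 bp in Oct4+ nEnd, 6528, 9247 and 6312 bp in DP nEnd and 7294, 5284 and 7437 bp in Pdgfra+ nEnd, so the widths of the populations overlapped where their ranks did not. In all 10 libraries it covered the same 4 of the 8 TSS. In DP nEnd replicate 2 it also touched the promoter windows of internal starts without covering those starts, so 7 of the 8 counted as marked. Of 249 genes at or above the 95.3 percentile, the lowest value of Vegfa, in those 6 libraries, 35 (14.1%) had a lower mean percentile in Oct4+ nEnd than Vegfa.

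**Figure D4:**
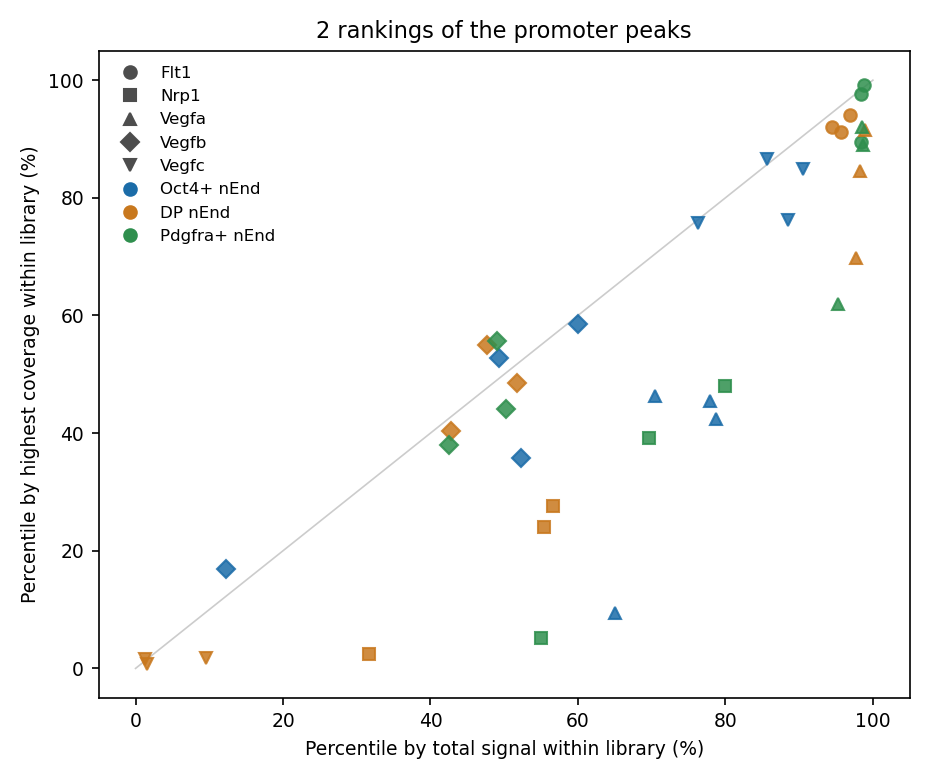
Percentile of the promoter peak by total signal (x axis, %) and by highest coverage (y axis, %) within its library, for the 5 genes marked in more than 2 libraries. Shape gives the gene and colour the population, and the grey line marks equal percentiles. Vegfa and Nrp1 lie below the line in every library, and Vegfc of DP nEnd lies near 0 on both axes.

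Vegfb (ENSMUSG00000024962.13, chromosome 19, 6982473 to 6987651, minus strand, 3 TSS), a ligand of FLT1, was marked in all 10 libraries at middle ranks. By total signal it lay at 59.95, 49.3, 12.3 and 52.3 in Oct4+ nEnd, 42.8, 47.6 and 51.8 in DP nEnd and 50.2, 42.6 and 49.1 in Pdgfra+ nEnd. These values overlap between all 3 populations, and replicate 3 of Oct4+ nEnd is the lowest. The locus is crowded. Dnajc4, which encodes a DNAJ protein, ends 260 bp before the start of Vegfb on the same strand, and the Vegfb peak reached the Dnajc4 promoter in Oct4+ nEnd replicate 4, DP nEnd replicate 3 and Pdgfra+ nEnd replicate 1. The DP nEnd consensus peak, 13827 bp wide, covered the promoters of Dnajc4, Nudt22 and Trpt1 as well. In the other 7 libraries the Vegfb peak reached no other promoter. Pgf (ENSMUSG00000004791.7, chromosome 12, 85166635 to 85177790, minus strand, 4 TSS), the placental ligand of FLT1, had no peak in 10 of 10 libraries.

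The genes around the family were taken from a list of 57, put together from general knowledge of the pathway: 13 partners of the neuropilins, 8 oxygen-sensing regulators, which control Vegfa in many tissues, and 36 genes of receptor signalling. Earlier results of these data were known when the list was drawn up, so its shares and tests are no independent look at the pathway. Of the 57, 26 (45.6%) were marked in all 10 libraries and 10 (17.5%) in none, beside 16.6% and 46.5% of all 21755 genes. Shares are given over the 47 with a peak in at least 1 library, beside the 11632 such genes of all. In DP nEnd 18 (38.3%, all 23.3%) were higher than in Oct4+ nEnd without overlap and 0 lower (all 4.2%). In Pdgfra+ nEnd 16 (34.0%, all 18.8%) were higher than in Oct4+ nEnd and 1 lower (2.13%, all 4.60%). Between DP nEnd and Pdgfra+ nEnd 6 were higher in Pdgfra+ nEnd (12.8%, all 4.64%) and 1 in DP nEnd (2.13%, all 2.68%). Without Pdgfra+ nEnd replicate 1 these last counts were 7 (14.9%, all 5.16%) and 11 (23.4%, all 23.1%), so their balance turned as it did over all genes. The median difference of the list, Oct4+ nEnd minus the other population, was −11.8 percentile points against DP nEnd and −10.0 against Pdgfra+ nEnd, beside −6.83 and −7.42 over all genes tested. For DP nEnd minus Pdgfra+ nEnd it was −0.729, beside −0.594.

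Exact two-sided permutation tests of the mean percentile over the libraries, with Benjamini-Hochberg adjustment over 11632 genes, called 0 of the 57 in each comparison, and the smallest adjusted p over all genes was 0.252 for DP nEnd, 0.240 for Pdgfra+ nEnd against Oct4+ nEnd, and 1 between DP nEnd and Pdgfra+ nEnd. Before adjustment the exact permutation p was under 0.05 for 6, 5 and 0 of the 47, or 12.8%, 10.6% and 0%, near the 11.3%, 11.9% and 0% of all 11632 genes. With 4 libraries against 3 the smallest p is 0.0286, which adjustment can only pass if very many genes reach it. With 3 against 3 the smallest exact permutation p is 0.10, so no gene can be called. These p-values measure the spread between libraries, which the study gives as biological replicates.

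Of the 47 marked genes of the list, 14 (29.8%) lay lower in every Oct4+ nEnd library than in all 6 others, against 15.7% of the 11632 marked genes, and 0 lay higher, against 3.78%. Only genes marked in all 6 others can lie lower by this rule, and the list was more widely marked than all genes. The part of this in the share was not tested. By group the 14 were 1 of the 5 marked neuropilin partners, 2 of the 8 oxygen-sensing regulators, all of them marked, and 11 of the 34 marked signalling genes. The partner was Plxna1, a semaphorin receptor, at 87.2 ± 4.52 (SD, n = 4), 96.6 ± 1.0 and 97.0 ± 0.709 (SD, n = 3 each) for Oct4+, DP and Pdgfra+ nEnd. The oxygen-sensing genes were Epas1, which encodes HIF2A, at 84.9 ± 10.8, 98.5 ± 0.419 and 98.0 ± 1.90, and Egln1, a prolyl hydroxylase that marks HIF proteins for decay, at 57.7 ± 21.6, 92.0 ± 2.41 and 93.7 ± 4.24, in the same order. Hif1a differed without overlap from Oct4+ nEnd only in DP nEnd, at 53.3 ± 9.05, 70.8 ± 3.18 and 57.7 ± 21.01.

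The signalling genes were the adaptors Shb, Nck1 and Nck2, the exchange factor Sos1, the lipid enzyme Plcg1, the PI3K subunit Pik3r1, the kinases Pdpk1, Akt1, Prkca and Mapkapk2, and the calcineurin subunit Ppp3ca. Among these 14 the widest gap was that of Mapkapk2, a kinase downstream of p38, at 7.37 ± 9.58 (SD, n = 4), 74.4 ± 0.606 and 79.1 ± 7.32 (SD, n = 3 each), with an unadjusted exact permutation p of 0.0286 in both comparisons. Pik3r1 lay at 29.4 ± 34.5, 91.5 ± 0.819 and 91.3 ± 2.45, and Akt1 at 48.3 ± 23.0, 95.4 ± 3.03 and 95.1 ± 3.78. Oct4+ nEnd replicates 3 and 4, with the fewest peaks, had no peak at Nck2, Pik3r1, Prkca and Mapkapk2. For these genes singly the part of peak number was not tested, and list counts with equal numbers of peaks are given below. Hspb1, a small heat shock protein, went the other way, at 68.5 ± 29.1, 30.3 ± 8.40 and 6.18 ± 10.7, without overlap between Oct4+ nEnd and Pdgfra+ nEnd. With equal numbers of peaks 14 of the 47 (29.8%) were higher in DP nEnd and 14 in Pdgfra+ nEnd than in Oct4+ nEnd, beside 13.1% and 12.1% of the 11632 genes. In each comparison 4 (8.51%) were higher in Oct4+ nEnd, beside 8.75% and 9.85%.

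**Figure D5:**
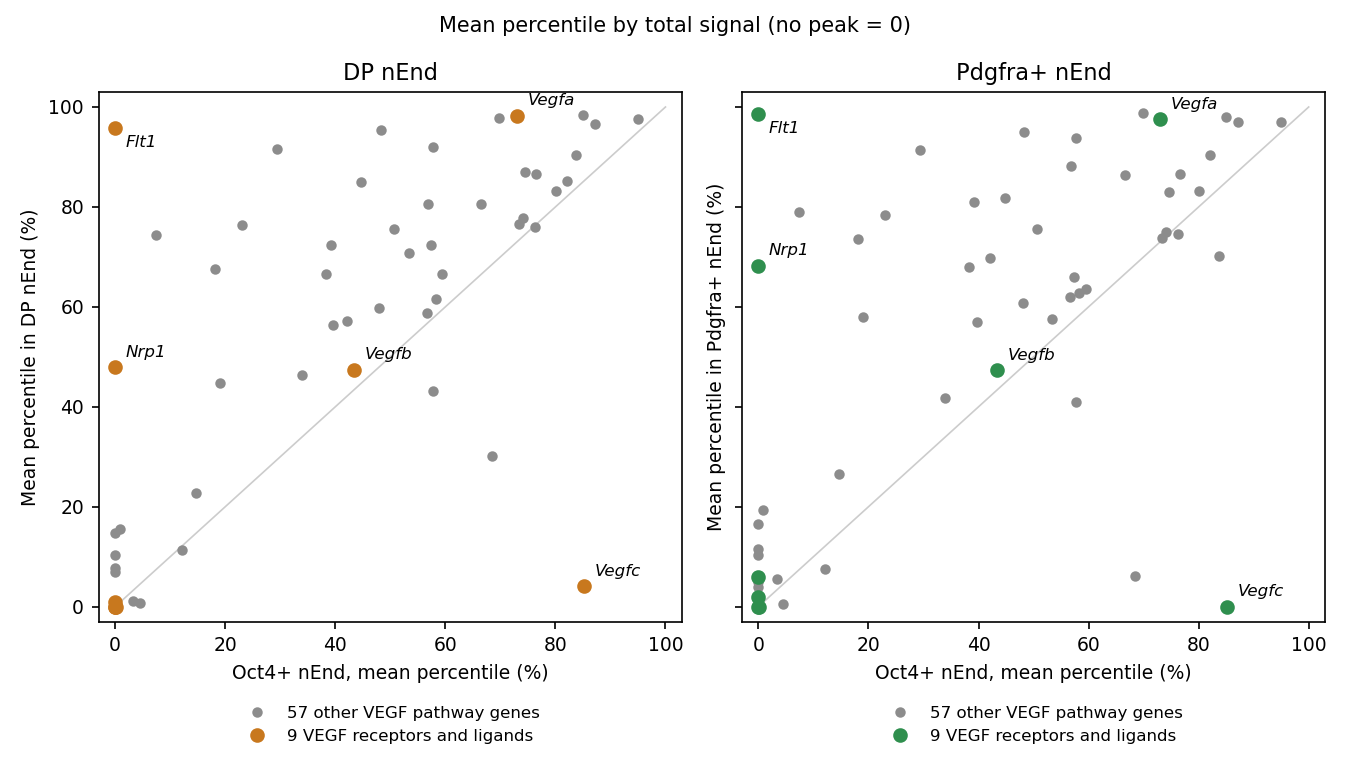
Mean percentile by total signal in Oct4+ nEnd (x axis, %) against DP nEnd (left) and Pdgfra+ nEnd (right; y axes, %), with a promoter without a peak set to 0. Grey points are the 57 other genes of the pathway, coloured points the 9 receptors and ligands, and the line marks equal means. Flt1 and Nrp1 lie at 0 on the x axis, and Vegfc lies at 85.2 in Oct4+ nEnd and near 0 elsewhere.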

How the data were processed

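H3K4me3 CUT&Tag peaks of 10 libraries were used, grouped by sorted population. Per the submitters' processing notes, reads were handled with bcl2fastq 2.19.1, Bowtie2 (mm10), SAMtools 1.12, deepTools, SEACR and bedtools 2.26.0. The authors called peaks against IgG with the stringent SEACR setting and deposited, per peak, 2 coverage signals (the total signal and the highest coverage), not scaled between libraries, so that only ranks within a library were compared. Depth is unknown and no interval was computed. The deposited consensus lists gave positions only.

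Coordinates were checked by the share of peaks at promoters, 90.8% to 97.3%, against 17.7% to 27.4% after a shift of 10000 bp. Peaks were on chromosomes 1 to 19 and X, and the genes and TSS (93196) were those of these chromosomes. Members and gene lists were chosen with earlier results of these data known. The genes named were the 9, genes sharing a peak with them, genes of the pathway list without overlap between Oct4+ nEnd and both other populations, and the 5 most like Flt1, of which 1 is not reported here. Pan3, Kit, Pdgfra, Fgf4, Tdgf1, Hsd17b14, Hif1a and Hspb1 were named after their values were seen. Sequences came from GRCm38.p6, and all 11 RefSeq promoters of the 9 genes were identical to it. The first start was the first of the GENCODE and RefSeq starts for sequences and the first GENCODE start for distances. The counting was tested on simulated data. Alternatives were another promoter window, 50% coverage of the window, protein-coding transcripts, equal numbers of peaks, ranking by highest coverage, leaving out each library and a replicate block. Python 3.11.15, numpy 2.4.6, pandas 2.3.3 and matplotlib 3.10.9 were used.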

Additional observations from a re-analysis of the deposited data

Results flagged for a closer look

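In Oct4+ nEnd, the only population with 4 libraries, 11 sets of values were screened for a library far from the others by Dixon's ratio of gap to range, and 2 stood apart, where chance gives about 1 in 20. The screen compares replicates with each other and bears on no difference between populations. The Vegfa percentile by highest coverage was 9.46 in replicate 3, against 42.5 to 46.3 in the other libraries. This replicate also has the fewest peaks of the 10 libraries. The number of VEGF genes marked was 4 in replicate 1 and 3 in each of the others, a difference made by the Flt4 peak at the 0.361 percentile. As the other 3 libraries tie, the ratio is at its maximum by construction, so this value is given as a description only.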

How the results depend on the processing

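The percentiles of the 9 genes were identical with a window of 2500 bp on each side, with 50% of the window covered and with protein-coding transcripts only, and no difference that separated the populations changed its sign under any alternative. With equal numbers of peaks, the VEGF genes marked per library moved from 3.25 to 2.5 (Oct4+ nEnd), from 5.33 to 2 (DP nEnd) and from 4.67 to 3 (Pdgfra+ nEnd). Vegfc then had no peak in DP nEnd, and Nrp1 was higher in Pdgfra+ nEnd than in DP nEnd without overlap. Fewer peaks are kept there by construction. The pathway genes higher without overlap became 4 in Oct4+ nEnd against DP nEnd (0 before), 4 in Oct4+ nEnd against Pdgfra+ nEnd (1 before) and 4 in DP nEnd against Pdgfra+ nEnd (1 before). Over all genes 1018 were then higher in Oct4+ nEnd and 1524 in DP nEnd (489 and 2711 before), 1146 in Oct4+ nEnd and 1413 in Pdgfra+ nEnd (535 and 2188 before), and 537 in DP nEnd against Pdgfra+ nEnd (312 before).

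Ranked by highest coverage, 0 of the 47 marked pathway genes were higher in Oct4+ nEnd and 8 in Pdgfra+ nEnd (1 and 16 before). Between DP nEnd and Pdgfra+ nEnd 0 were higher in DP nEnd and 2 in Pdgfra+ nEnd (1 and 6 before). Over the 11632 marked genes 1377 were higher in Pdgfra+ nEnd than in Oct4+ nEnd and 309 than in DP nEnd (2188 and 540 before). Flt1 no longer separated DP nEnd from Pdgfra+ nEnd. The cause was not tested.

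Leaving out 1 library at a time, the VEGF genes marked per library ranged from 3 to 3.33, 5 to 5.5 and 4 to 5 for Oct4+, DP and Pdgfra+ nEnd. Pathway genes ranged from 0 to 2 (higher in Oct4+ nEnd) and 18 to 23 (DP nEnd), 1 to 2 (Oct4+ nEnd) and 16 to 22 (Pdgfra+ nEnd), and 1 to 11 (DP nEnd) and 6 to 10 (Pdgfra+ nEnd). All genes ranged from 489 to 989 and 2711 to 3853, 535 to 961 and 2188 to 3539, and 312 to 2686 and 540 to 1721, in the same order. The 989, 961 and both values of 2 came without Oct4+ nEnd replicate 3, the 11 and 2686 without Pdgfra+ nEnd replicate 1, and the 10, 3539 and 1721 without Pdgfra+ nEnd replicate 2, when Nrp1 also separated DP nEnd from Pdgfra+ nEnd. Counts over all genes also moved by over 1.5 times between Oct4+ nEnd and Pdgfra+ nEnd without Pdgfra+ nEnd replicate 1 (900 higher in Oct4+ nEnd). Higher in DP nEnd than Pdgfra+ nEnd were 495 without DP nEnd replicate 1 and 631, with 5 pathway genes, without DP nEnd replicate 3. Higher in Pdgfra+ nEnd were 1023 without DP nEnd replicate 2 and 1329 without Pdgfra+ nEnd replicate 3.

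Libraries with the same number correlated from −0.203 to 0.209 in their deviations from the population means, so the numbers do not pair them. In the replicate block, which asks that numbers 1 to 3 all move one way, pathway genes were 0 and 22, 1 and 16, and 5 and 9 in that order, and all genes 709 and 3735, 909 and 3137, and 727 and 1091.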
